A study of Mus musculus with 10 samples.

Results

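The genes described here encode the classical neurotransmitter receptors of the mouse: the receptors for GABA, glycine, glutamate, acetylcholine, serotonin, dopamine, noradrenaline and extracellular nucleotides. Members were chosen by name among the protein-coding genes of the deposited table, by the symbol stems of these families (Gabr, Gabbr, Glra, Glrb, Gria, Grik, Grin, Grm, Chrn, Chrm, Htr, Drd, Adra, Adrb, P2rx and P2ry). This gave 115 genes of 22046 protein-coding genes and of 54532 genes in all. Of the 115, 69 passed the filter of more than 0.5 cpm (read counts scaled by library size) in at least 3 libraries and were tested. A further 35 had counts but stayed below the filter, with a highest count in any library between 1 and 17, and 11 had no count in any library.

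RNA was sequenced from epithelial cells of the small intestine of 5 litter-matched Gucy2c-GFP mice of the CD1/ICR stock, aged 10 weeks. All mice carried a transgene in which the Gucy2c promoter drives GFP, so the sort reports promoter activity of GUCY2C, the intestinal receptor guanylate cyclase, and not a lineage. From each mouse, 20000 cells with high GFP (GUCY2Chi) and 20000 cells with medium GFP (GUCY2Cmed, in the labels both Medium and Lo) gave 1 library each, and nothing else differed between the groups by label. Values are listed below in the order of mice 2, 7, 12, 14 and 15, the numbers in the labels, which were taken as those of the mice.

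Neurotransmitter receptors are either ion channels, which open when transmitter binds and change the membrane potential at once, or G protein-coupled receptors, which act more slowly through second messengers. GABA and glycine channels inhibit most mature neurons, whereas glutamate, nicotinic and serotonin channels excite them. In the gut, enteric neurons, immune cells and epithelial cells, hormone-secreting enteroendocrine cells among them, are known to express some of these receptors, and the forebrain expresses many of them at high levels.

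Reads counted on genes ranged from 10903958 to 15307932 per library, of which receptor genes took between 0.0110% and 0.0815%. Gucy2c measured 1532, 1752, 1021, 1757 and 549 cpm in GUCY2Chi cells and 483, 385, 323, 375 and 456 cpm in GUCY2Cmed cells, so it was higher in all 5 mice (log2 fold change 1.71, SE 0.32, adjusted p = 0.00187, edgeR quasi-likelihood test). Summed over 8 enteroendocrine markers, GUCY2Chi libraries held 46242, 57891, 21936, 52863 and 4821 cpm, against 70.8 to 141 cpm in GUCY2Cmed libraries. Summed over 8 enterocyte markers, the GUCY2Chi libraries of mice 12 and 15 held 25735 and 25913 cpm, the other 3 between 2285 and 3264 cpm, and GUCY2Cmed libraries between 45277 and 63501 cpm. Transcripts of forebrain neurons were present in both groups, at 87.1 to 1692 cpm summed over 15 markers in GUCY2Chi cells and 65.8 to 952 cpm in GUCY2Cmed cells. Much of the lowest sums came from Itpka and Ncdn. These never fell below 21.5 and 14.5 cpm in GUCY2Chi cells or below 33.8 and 14.6 cpm in GUCY2Cmed cells. Camk2a, a kinase subunit of excitatory forebrain neurons, measured 2.02, 30.5, 25.2, 2.54 and 81.8 cpm in GUCY2Chi cells and 35.3, 1.04, 43.8, 34.4 and 16.7 cpm in GUCY2Cmed cells. Nrgn, a calmodulin-binding protein of the same neurons, measured 20.04, 305, 289, 21.9 and 933 cpm and then 395, 8.91, 521, 387 and 176 cpm. Both genes were highest in GUCY2Chi cells of mouse 15 and lowest in GUCY2Cmed cells of mouse 7. For this reason each receptor gene was tested for the group difference and also for its slope on a forebrain index, the mean log2 cpm of Camk2a and Nrgn, in a fit that held the group as well. A slope of 1 means that a gene changed in proportion to these transcripts.

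Receptor genes that passed a test fell into 2 sets, which did not share a member. In the group comparison 12 genes were higher in GUCY2Chi cells, 17.4% of the 69 tested, beside 13.9% of all 15703 genes tested (edgeR quasi-likelihood test, Benjamini-Hochberg adjusted p under 0.01). The 11 described below were Drd4, Gabrd, Htr1d, Grik4, Grin2c, Chrnb4, Chrm4, Grm4, Chrna1, Chrna3 and Chrna5. Of these, Drd4, Htr1d, Grik4, Grin2c, Chrnb4, Chrm4, Chrna1, Chrna3 and Chrna5 never exceeded 0.5 cpm in GUCY2Cmed libraries. They passed the filter only through GUCY2Chi libraries, so the count of 12 and its share carry no weight. No receptor gene was lower in this test, beside 8.79% of all genes; 5 were lower at an unadjusted p under 0.05, and limma-voom and DESeq2 each called 2. On the forebrain index 28 receptor genes had a positive slope past the same threshold, 40.6% of those tested, beside 6.24% of all genes, and none had a negative slope, beside 0.14% of all genes; 5 were negative at an unadjusted p under 0.05, and limma-voom called none. Without TMM factors the share of higher genes among all genes called in the group comparison moved from 61.3% to 83.9% and the median log2 fold change of all genes from 0.09 to 0.39, while 12 receptor genes were again higher and none lower. None of the 12 was among the 28, and 29 tested genes passed neither threshold. The median log2 fold change was 0.53 over the 69 genes and 0.09 over all genes tested, but a gene that passed the filter only through the group in which it was high had to differ, so this median carries no weight. In these bulk libraries, fewer cells of a type and less RNA per cell cannot be told apart.

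**Figure D1:**
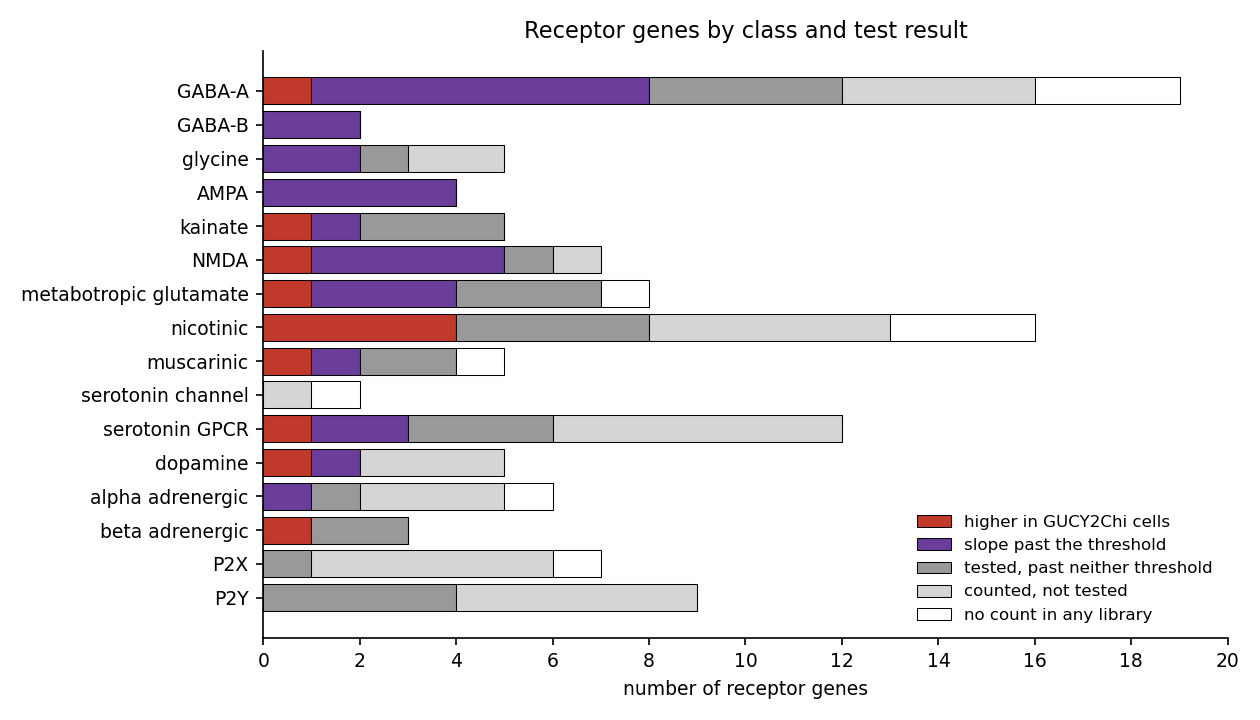
Number of receptor genes in each class (horizontal axis), divided by test result: higher in GUCY2Chi cells, slope on the forebrain index past the threshold, tested but past neither threshold, counted but not tested, and without a count. All 4 AMPA and both GABA-B genes had a slope past the threshold, whereas 4 of 16 nicotinic genes were higher in GUCY2Chi cells and none had such a slope. These 4 nicotinic genes passed the filter only through GUCY2Chi libraries.

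The promoters of 4 of the 12 higher genes are shown because Drd4 had the largest fitted difference and because Chrna5, Chrna3 and Chrnb4, whose products form nicotinic receptors of autonomic ganglia, lie side by side on chromosome 9. Each sequence is the 250 bases before a RefSeq transcription start on GRCm38.p6, read 5′ to 3′ on the gene's strand. The sequences lie at chr7:141291768-141292017 (plus strand, Drd4), chr9:54981238-54981487 (plus strand, the second of the RefSeq starts of Chrna5), chr9:55026563-55026812 (minus strand, Chrna3) and chr9:55048545-55048794 (minus strand, Chrnb4). Capitals mark the GC box, GGGCGG or its complement CCGCCC, with overlapping matches joined. The window before the first start of Chrna5, at chr9:54980630-54980879, is not shown. It held no GC box and had a GC content of 40%.
Drd4: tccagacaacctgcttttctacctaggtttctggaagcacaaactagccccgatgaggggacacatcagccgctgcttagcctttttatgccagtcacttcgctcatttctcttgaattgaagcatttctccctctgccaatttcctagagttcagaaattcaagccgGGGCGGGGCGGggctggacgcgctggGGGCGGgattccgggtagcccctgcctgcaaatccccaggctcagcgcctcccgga
Chrna5: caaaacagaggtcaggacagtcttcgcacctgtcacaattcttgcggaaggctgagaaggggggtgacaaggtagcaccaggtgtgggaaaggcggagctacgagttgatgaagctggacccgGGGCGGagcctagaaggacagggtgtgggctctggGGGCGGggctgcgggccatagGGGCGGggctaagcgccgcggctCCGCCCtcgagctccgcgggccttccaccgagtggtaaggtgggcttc
Chrna3: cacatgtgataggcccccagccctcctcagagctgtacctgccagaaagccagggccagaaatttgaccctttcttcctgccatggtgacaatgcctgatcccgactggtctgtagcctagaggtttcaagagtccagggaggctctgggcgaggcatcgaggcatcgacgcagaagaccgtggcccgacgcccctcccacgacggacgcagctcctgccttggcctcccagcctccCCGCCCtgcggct
Chrnb4: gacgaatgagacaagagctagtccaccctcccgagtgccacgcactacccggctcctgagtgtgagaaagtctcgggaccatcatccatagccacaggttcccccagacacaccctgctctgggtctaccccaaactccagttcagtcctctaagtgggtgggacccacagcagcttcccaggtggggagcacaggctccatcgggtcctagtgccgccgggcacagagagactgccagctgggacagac

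RefSeq windows matched 9 of the 12 higher genes, with 11 windows in all. A GC box on either strand was present in 8 of the 11, against 32.7% of all 32851 windows of this length. The 11 windows had a GC content of 40% to 72.4% with a median of 63.2%, against a median of 52.4% over all windows, and the shares were not compared at equal GC content. Neither the E-box CAGATG, found in 14.4% of all windows, nor TATAAA, found in 12.4%, was present in the 11. These matches are a description of the letters and were not tested.

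Among the 19 genes of GABA-A receptors, the chloride channels opened by GABA, Gabrd was higher in GUCY2Chi cells. Gabrd (chr4:155384980-155398112, minus strand, GRCm38) encodes the delta subunit of extrasynaptic receptors that sense ambient GABA. It measured 39.7, 27.6, 34.4, 56.1 and 14.6 cpm in GUCY2Chi cells and 1.40, 0, 0.504, 0.751 and 0.428 cpm in GUCY2Cmed cells. Every GUCY2Chi library was above every GUCY2Cmed library, with the lowest in mouse 15, and the log2 fold change was 5.81 (SE 0.64, adjusted p = 7.27e-05, edgeR). Its slope on the forebrain index was -0.08 (SE 0.14).

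Gabra2, which encodes an alpha subunit found at many inhibitory synapses, stood between the 2 sets. It measured 24.3, 32.7, 14.99, 30.8 and 24.9 cpm in GUCY2Chi cells and 7.49, 0.482, 10.7, 9.24 and 3.42 cpm in GUCY2Cmed cells. The groups did not overlap, as for 13 receptor genes higher and 3 lower in GUCY2Chi cells, beside 16.7% and 13.2% of all genes tested. Its log2 fold change of 2.02 (SE 0.57) did not pass the threshold (adjusted p = 0.0155, edgeR), but passed with the forebrain index as covariate, at 2.39 (adjusted p = 0.0053), and without the GUCY2Cmed library of mouse 7, the library with the least Camk2a, at 1.72 (adjusted p = 0.00378). It passed as well by limma-voom (adjusted p = 0.00784), by DESeq2 (adjusted p = 0.00173) and without the filter.

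Of the other GABA-A genes, 7 had a slope past the threshold, among them Gabrb1, Gabra4, Gabra3, Gabra5 and Gabrg1, of which Gabra5 and Gabrg1 lost the call with the mouse as replicate block. These encode alpha, beta and gamma subunits. Gabrb1 had a slope of 1.08 (SE 0.07) and a log2 fold change of 0.21 (SE 1.02), and Gabra4 a slope of 1.15 (SE 0.14) and a log2 fold change of 0.08 (SE 1.15). Gabrr1, Gabra6 and Gabrp had no count in any library, and Gabre stayed below the filter with 31 counts in GUCY2Chi and 6 in GUCY2Cmed libraries.

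Both GABA-B genes, whose products pair to form the G protein-coupled GABA receptor, followed the forebrain index. Gabbr2 measured 0.740, 11.4, 9.16, 1.23 and 32.3 cpm in GUCY2Chi cells and 13.9, 0.241, 16.3, 13.7 and 6.93 cpm in GUCY2Cmed cells. High and low libraries occurred in both groups, and the slope was 0.99 (SE 0.06). Gabbr1 had a smaller slope of 0.69 (SE 0.08), with 3.77 and 4.09 cpm in the GUCY2Chi libraries of mice 2 and 14, where Camk2a was low. Its log2 fold change was 0.53 (SE 0.77, adjusted p = 0.641, edgeR) without the index and 0.89 with it (adjusted p = 0.0305).

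Glycine receptor genes followed the same pattern. Glrb, the beta subunit that anchors glycine receptors at synapses, measured 0.740, 6.39, 3.86, 0.694 and 16.1 cpm in GUCY2Chi cells and 3.84, 0, 4.90, 5.71 and 3.51 cpm in GUCY2Cmed cells, with a slope of 0.89 (SE 0.11). Glra2, an alpha subunit, had a slope of 1.04 (SE 0.19) at 52 counts in all. That call was lost with the mouse as replicate block and without any of 6 libraries, those of GUCY2Chi cells of mice 2, 7, 14 and 15 and of GUCY2Cmed cells of mice 7 and 12. Glra3 did not pass (slope 0.86, SE 0.19, adjusted p = 0.013), and Glra1 and Glra4 had 1 and 3 counts.

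All 4 genes of AMPA receptors, the channels of fast excitatory transmission, had slopes past the threshold, although Gria4 lost the call with the mouse as replicate block. Gria2 (chr3:80681450-80802835, minus strand) encodes the subunit that makes these channels impermeable to calcium. It measured 1.28, 31.9, 26.5, 2.93 and 79.1 cpm in GUCY2Chi cells and 34.2, 1.04, 44.2, 34.8 and 17.6 cpm in GUCY2Cmed cells. Its libraries ranked with those of Camk2a at both ends, highest in GUCY2Chi cells of mouse 15 and lowest in GUCY2Cmed cells of mouse 7. The ratio of Gria2 to Camk2a cpm, which is not a ratio of levels because the genes differ in length, stayed between 0.633 and 1.15 in GUCY2Chi cells and between 0.968 and 1.06 in GUCY2Cmed cells. Its slope was 0.999 (SE 0.05), and its log2 fold change was 0.10 (SE 0.98, adjusted p = 0.955, edgeR). Gria1, Gria3 and Gria4 had slopes of 0.95, 1.07 and 1.01.

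**Figure D2:**
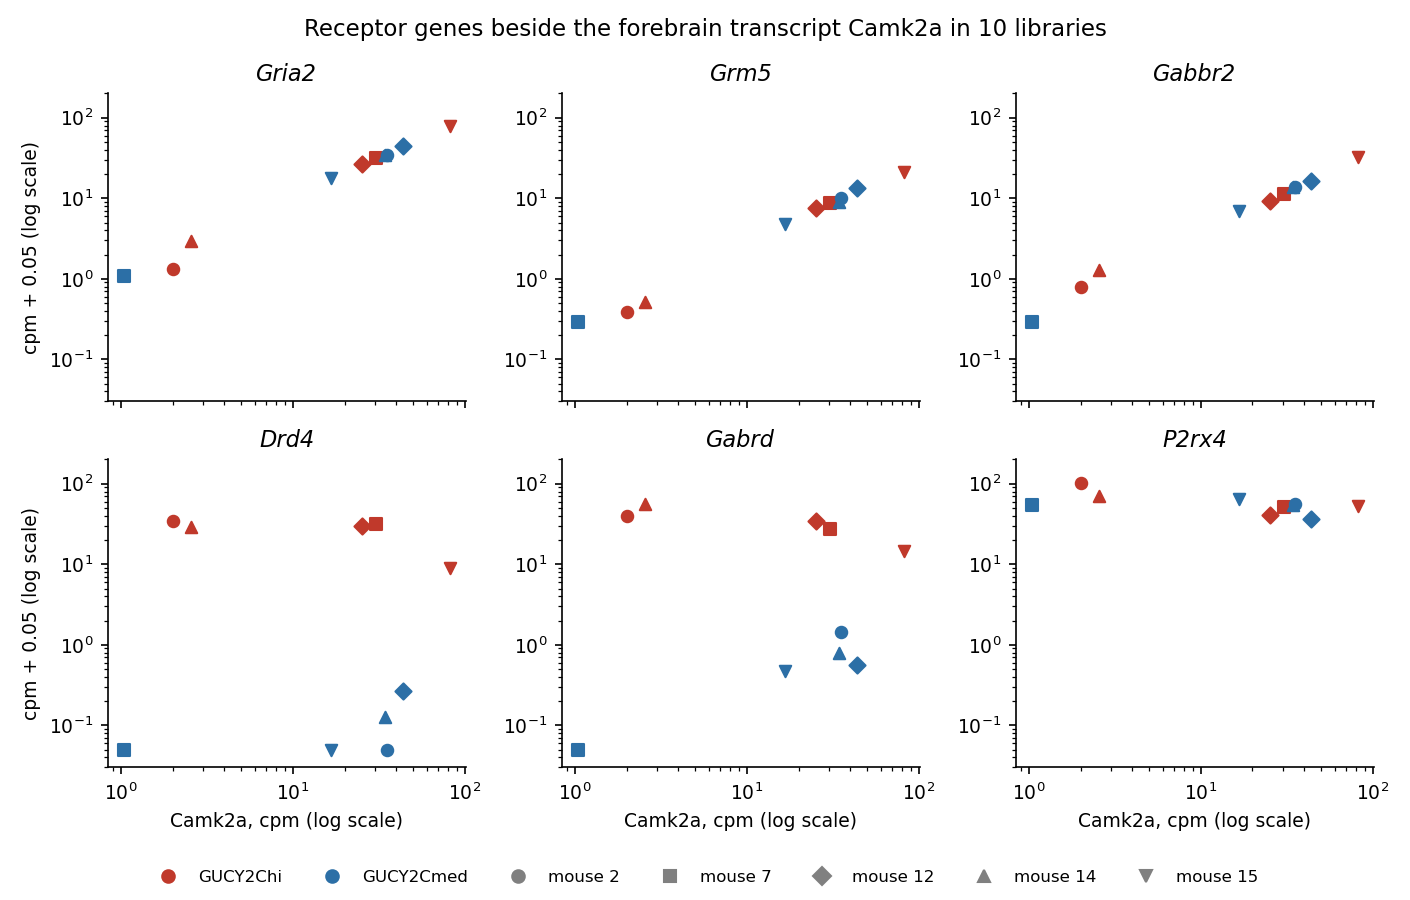
TMM-normalized cpm of 6 receptor genes (vertical axis, with 0.05 added, log scale) against Camk2a cpm (horizontal axis, log scale) in the 10 libraries, with a marker shape for each mouse. Gria2, Grm5 and Gabbr2 rose with Camk2a across both groups, Drd4 and Gabrd separated by group at any Camk2a level, and P2rx4 stayed between 36.4 and 102 cpm throughout.

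Among kainate receptor genes, Grik4 encodes a high-affinity subunit that needs a partner subunit to form a channel, and it was higher in GUCY2Chi cells. It measured 3.70, 6.99, 4.39, 7.40 and 1.51 cpm there and 0.0936, 0, 0.360, 0 and 0.171 cpm in GUCY2Cmed cells, without overlap (log2 fold change 5.14, SE 0.78, adjusted p = 0.000628, edgeR). Grik5, the other high-affinity subunit, measured 3.43, 7.96, 5.07, 5.16 and 15.1 cpm in GUCY2Chi cells and 7.21, 0.321, 6.48, 5.11 and 4.02 cpm in GUCY2Cmed cells. It passed neither threshold (slope 0.44, SE 0.10, adjusted p = 0.012). Grik2, a subunit that can form channels alone, had a slope of 0.78 (SE 0.16) that passed narrowly (adjusted p = 0.00914). Its call was lost with the mouse as replicate block and in 8 of 10 fits with a library left out, remaining only without the GUCY2Chi library of mouse 2 or 12. Grik1 and Grik3 passed neither threshold.

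NMDA receptors, the calcium-permeable glutamate channels, had a gene higher in GUCY2Chi cells and 4 genes with a slope. Grin2c, a subunit known from cerebellar granule cells, measured 6.59, 5.19, 1.97, 5.24 and 2.27 cpm in GUCY2Chi cells and 0.187, 0.161, 0.144, 0 and 0.0856 cpm in GUCY2Cmed cells. The groups did not overlap, and the log2 fold change was 5.11 (SE 0.62, adjusted p = 0.000141, edgeR). Grin1, the subunit every NMDA receptor requires, did not follow Grin2c. It had a slope on the forebrain index of 0.93 (SE 0.13), lost with the replicate block, and a log2 fold change of 0.10 (SE 1.01). Grin2b, a forebrain subunit, measured 1.75, 13.99, 11.7, 2.08 and 37.0 cpm in GUCY2Chi cells and 12.6, 0.562, 19.0, 13.7 and 8.22 cpm in GUCY2Cmed cells, with a slope of 0.83 (SE 0.05). Grin2a and Grin3a had slopes of 0.88 and 1.30, of which that of Grin2a was lost with the replicate block. Grin2d, a subunit of early development and interneurons, measured 0.269 to 3.97 cpm in GUCY2Chi cells and 2.25 to 6.09 cpm in GUCY2Cmed cells. Its log2 fold change of -1.39 (SE 0.59, adjusted p = 0.0837, edgeR) passed the threshold with the index as covariate, at -1.60 (adjusted p = 0.00607).

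Among metabotropic glutamate receptors, which couple to G proteins, Grm4 and Grm5 showed the 2 patterns most plainly. Grm4 encodes an inhibitory receptor of presynaptic terminals. It measured 14.9, 17.7, 7.49, 18.04 and 4.16 cpm in GUCY2Chi cells and 0.468, 1.12, 0.360, 1.05 and 0.171 cpm in GUCY2Cmed cells. All GUCY2Chi libraries lay above all GUCY2Cmed libraries, and the log2 fold change was 4.26 (SE 0.57, adjusted p = 0.000269, edgeR). Grm5, an excitatory receptor of forebrain neurons that raises intracellular calcium, measured 0.336, 8.74, 7.57, 0.463 and 21.3 cpm in GUCY2Chi cells and 10.0, 0.241, 13.5, 8.94 and 4.71 cpm in GUCY2Cmed cells. Its groups overlapped except for the GUCY2Chi library of mouse 15, which lay above every GUCY2Cmed library. Its slope was 1.08 (SE 0.06), and its ratio to Camk2a cpm stayed between 0.167 and 0.309 over the 10 libraries. Grm7 had a slope of 0.80 (SE 0.12), lost with the replicate block, Grm2, Grm3 and Grm8 passed neither threshold, and Grm6 had no count.

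Nicotinic receptors, the acetylcholine-gated cation channels, contributed 4 of the 12 higher genes and none of the 28. All 4 passed the filter only through GUCY2Chi libraries, so this count carries no weight. Chrna3, Chrnb4 and the accessory subunit Chrna5 form the receptors of autonomic ganglia, and their genes lie together at chr9:55010111-55026562 (minus strand), chr9:55028154-55048779 (minus strand) and chr9:54980880-55007779 (plus strand). Chrnb4 measured 6.86, 5.37, 2.50, 6.48 and 1.197 cpm in GUCY2Chi cells and 0.281, 0.401, 0.144, 0 and 0.257 cpm in GUCY2Cmed cells, without overlap (log2 fold change 4.33, SE 0.71, adjusted p = 0.000943, edgeR). Chrna3 measured 2.76, 1.75, 0.908, 5.24 and 0.126 cpm in GUCY2Chi cells, and 152 counts there stood against none in any GUCY2Cmed library. Chrna5 measured 1.34, 1.03, 0, 1.39 and 1.07 cpm in GUCY2Chi cells, 72 counts in all, again against none. Chrna5 had no count in GUCY2Chi cells of mouse 12, and Chrna3 had 2 counts in those of mouse 15, fewer than the 3 that a count of 0 allows, so that library was not distinguishable from the GUCY2Cmed libraries.

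Because a count of 0 allows up to 3 counts per library, 0.216 to 0.281 cpm in GUCY2Cmed libraries, Chrna3 was at least 8.84-fold and Chrna5 at least 3.96-fold higher in GUCY2Chi cells. These floors cover counting error only. The adjusted p was 0.00517 for Chrna3 and 0.00909 for Chrna5 by edgeR's quasi-likelihood test, and 0.0180 and 0.0340 by edgeR with the mouse as replicate block, so both calls were lost there. By limma-voom they were lost without the block (adjusted p = 0.0100 and 0.0232) and passed with it (0.00331 and 0.00743). With a library left out, the adjusted p of Chrna3 ranged from 0.00130 to 0.0131, and the call was lost without the GUCY2Chi library of mouse 2, 7 or 14 or the GUCY2Cmed library of mouse 2, 14 or 15. That of Chrna5 ranged from 0.00132 to 0.0227, and its call remained only without the GUCY2Chi library of mouse 12, the library with no count.

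Chrna1 encodes the alpha subunit of the receptor at the neuromuscular junction. It measured 2.02, 1.93, 2.73, 2.93 and 1.07 cpm in GUCY2Chi cells and 0.374, 0, 0.144, 0 and 0.0856 cpm in GUCY2Cmed cells, without overlap. Its log2 fold change was 4.10 (SE 0.75, adjusted p = 0.00177, edgeR), and 4.33 with the mouse as replicate block (adjusted p = 0.0110), where the call was lost. By limma-voom with the same block it passed (adjusted p = 0.00477). Chrnb1, a further muscle-type subunit, measured 2.29 to 4.24 cpm in GUCY2Chi cells and 1.73 to 3.38 cpm in GUCY2Cmed cells, a log2 fold change of 0.25 (SE 0.31, adjusted p = 0.581). The muscle subunits Chrnd, Chrng and Chrne had between 0 and 8 counts over the 10 libraries.

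Chrnb2, the common beta subunit of brain nicotinic receptors, measured 3.23, 5.85, 2.80, 2.39 and 2.27 cpm in GUCY2Chi cells and 0.936, 0, 1.37, 0.676 and 0.342 cpm in GUCY2Cmed cells. The groups did not overlap, but the log2 fold change of 2.30 (SE 0.68) did not pass the threshold (adjusted p = 0.0197, edgeR). It passed with the forebrain index as covariate, at 2.58 (adjusted p = 0.00484), and without the GUCY2Cmed library of mouse 7, at 1.98 (adjusted p = 0.00908), and by DESeq2 (adjusted p = 0.00102). Over 7252 bases the gene shares its position with Adar on the opposite strand, which had 631 counts in GUCY2Chi and 768 in GUCY2Cmed libraries, and without stated strand counting the reads of both cannot be told apart. Chrna4, its usual alpha partner, passed neither threshold (slope 1.27, SE 0.30, adjusted p = 0.0169), as did Chrna2. Chrna7, the subunit of the brain's homomeric receptor, had 10 counts in all, and Chrna6 and Chrnb3 had none.

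Muscarinic receptors are the G protein-coupled receptors for acetylcholine. Chrm4, which inhibits adenylate cyclase, measured 4.17, 9.47, 3.94, 5.32 and 2.83 cpm in GUCY2Chi cells and 0.187, 0.482, 0.216, 0.375 and 0 cpm in GUCY2Cmed cells. No library of a group reached into the other, and the log2 fold change was 4.29 (SE 0.62, adjusted p = 0.000446, edgeR). Chrm1, the main muscarinic receptor of the forebrain, had a slope of 0.53 (SE 0.07) and a log2 fold change of -0.10 (SE 0.64). Chrm2 and Chrm3, the muscarinic receptors of gut smooth muscle, had log2 fold changes of 1.55 (SE 0.74, adjusted p = 0.122, edgeR) and 1.22 (SE 0.57, adjusted p = 0.112).

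**Figure D3:**
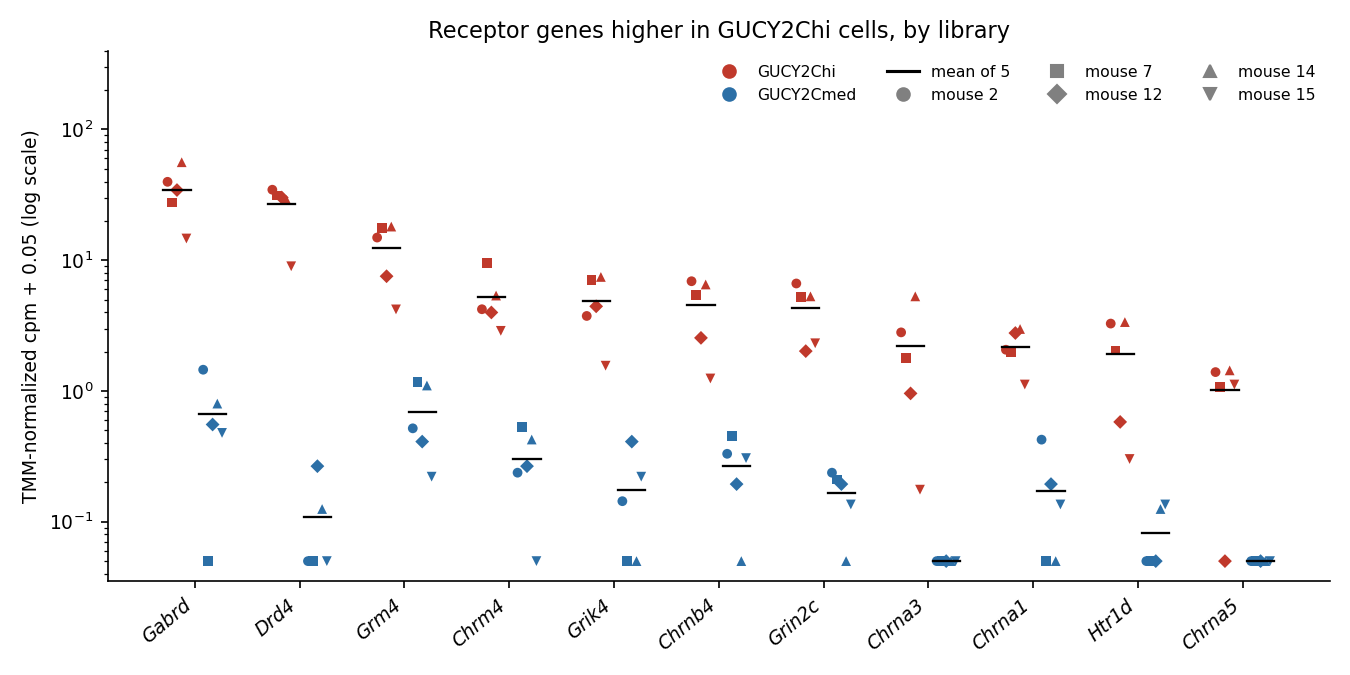
TMM-normalized cpm (vertical axis, with 0.05 added, log scale) of 11 receptor genes higher in GUCY2Chi cells, by library, with a marker shape for each mouse and a black line at the mean of 5. For 10 of the 11 genes every GUCY2Chi library lies above every GUCY2Cmed library, as for 16.7% of all genes tested. The genes were picked by the group test on these same libraries, which favours such a separation. The GUCY2Chi library of mouse 15 is the lowest for 9 of the 11, with Chrna3 there at 2 counts. Htr1d there is below the level that a count of 0 allows in the GUCY2Cmed library of mouse 2.

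Serotonin is made in the gut epithelium by enterochromaffin cells. Among its 12 G protein-coupled receptor genes, Htr1d, an inhibitory receptor of nerve terminals, was higher in GUCY2Chi cells. Htr1d measured 3.23, 1.99, 0.530, 3.31 and 0.252 cpm there and 0, 0, 0, 0.0751 and 0.0856 cpm in GUCY2Cmed cells. The 0.252 cpm of mouse 15 lay below the 0.281 cpm that a count of 0 allows in the GUCY2Cmed library of mouse 2. On 135 counts against 2, its group ratio was 56.9-fold, with an exact 95% counting interval from 15.5 to 475 (adjusted p = 0.00173, edgeR). Htr5b showed 47 counts against 3, a ratio of 13.2-fold with an interval from 4.25 to 66.4, but the groups overlapped and it did not pass (adjusted p = 0.0184); without the GUCY2Chi library of mouse 15 it did (adjusted p = 0.00658).

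Htr4, the receptor that drives peristaltic reflexes, measured 0.269, 0.362, 0.379, 0.154 and 0.126 cpm in GUCY2Chi cells and 0.843, 1.53, 0.792, 0.601 and 0.257 cpm in GUCY2Cmed cells. It was lower in GUCY2Chi cells of all 5 mice, but its log2 fold change of -1.61 (SE 0.55) did not pass (adjusted p = 0.0387, edgeR). Htr6, a brain receptor, had counts in only 1 GUCY2Chi library, that of mouse 15 at 0.693 cpm, and 0.749, 0.161, 0.576, 0.676 and 0.856 cpm in GUCY2Cmed cells (adjusted p = 0.171). Without the GUCY2Chi library of mouse 15 its adjusted p was 0.00315. Htr2c and Htr1b had slopes of 1.12 and 0.64 on the forebrain index. The call of Htr1b was lost with the mouse as replicate block and without the GUCY2Chi library of mouse 14 or 15 or the GUCY2Cmed library of mouse 7. The genes of the serotonin-gated channel had few counts, with 4 of Htr3a in GUCY2Cmed cells, none in GUCY2Chi cells, and none of Htr3b in any library.

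Of the 5 dopamine receptor genes, Drd4 had the largest fitted difference of all receptor genes, and 2 genes had enough counts to be tested. Drd4 (chr7:141292006-141296464, plus strand) encodes an inhibitory receptor. It measured 34.6, 31.2, 30.1, 28.8 and 8.94 cpm in GUCY2Chi cells and 0, 0, 0.216, 0.0751 and 0 cpm in GUCY2Cmed cells. That is 1946 counts against 4, a ratio of 410-fold with an exact 95% counting interval from 160 to 1508. The log2 fold change was 8.52 (SE 0.67, adjusted p = 8.40e-06, edgeR), and its slope on the forebrain index was -0.13 (SE 0.12). Drd1, the stimulatory receptor of the striatum, measured 0, 1.03, 0.530, 0 and 2.96 cpm in GUCY2Chi cells and 0.749, 0, 1.01, 0.526 and 0.342 cpm in GUCY2Cmed cells. It was at 0 in the 3 libraries with the least Camk2a, and its slope of 1.36 (SE 0.16) was the steepest among the 28. Drd2, Drd3 and Drd5 had between 4 and 8 counts each.

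Noradrenaline and adrenaline act on adrenergic receptors. Adra2a, which inhibits adenylate cyclase, measured 4.84, 3.92, 3.86, 2.47 and 5.54 cpm in GUCY2Chi cells and 8.24, 6.02, 5.98, 7.36 and 6.50 cpm in GUCY2Cmed cells. Every GUCY2Chi library was below every GUCY2Cmed library, yet the log2 fold change of -0.72 (SE 0.26) did not pass (adjusted p = 0.0446). Adra2c had a slope of 0.88 (SE 0.11), lost with the replicate block. The smooth muscle receptors Adra1a, Adra1b and Adra1d had 16, 3 and 0 counts over the 10 libraries.

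Purinergic receptors respond to extracellular ATP and related nucleotides, and none of the 5 tested passed either threshold. P2rx4, an ATP-gated cation channel, measured 102, 51.0, 41.4, 70.6 and 52.2 cpm in GUCY2Chi cells and 55.9, 54.0, 36.4, 53.7 and 65.5 cpm in GUCY2Cmed cells. The groups overlapped, with a log2 fold change of 0.26 (SE 0.25, adjusted p = 0.463, edgeR). The other 6 P2X genes stayed below the filter, P2rx2 without a count, and P2rx6 and P2rx1 with 28 against 5 and 17 against 1 counts in GUCY2Chi and GUCY2Cmed libraries.

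P2ry1 and P2ry2, receptors for ADP and for ATP and UTP that raise intracellular calcium, were measured at lower levels in GUCY2Chi cells of all 5 mice. P2ry1 measured 10.1, 2.41, 11.7, 2.93 and 18.1 cpm in GUCY2Chi cells and 31.4, 28.0, 19.7, 29.0 and 36.9 cpm in GUCY2Cmed cells. P2ry2 measured 0.740, 0.724, 3.18, 0.231 and 4.60 cpm and then 12.6, 5.54, 8.50, 5.26 and 10.0 cpm. Neither overlapped between groups, and within GUCY2Chi cells both were highest in mice 12 and 15, the 2 libraries with the most enterocyte transcripts, whose part in the result was not tested. The log2 fold changes were -1.68 (SE 0.49) for P2ry1 and -2.14 (SE 0.66) for P2ry2, and neither passed (adjusted p = 0.0180 and 0.0242, edgeR). Both passed without the GUCY2Chi library of mouse 15, at -2.07 (adjusted p = 0.00505) and -2.75 (adjusted p = 0.00650), and also by limma-voom and by DESeq2. Without the GUCY2Chi libraries of both mouse 12 and mouse 15, they were at -2.47 (adjusted p = 0.00186) and -3.82 (adjusted p = 0.000236). Leaving out the highest GUCY2Chi libraries lowers the level of that group by itself, so the direction of these shifts was fixed in advance. The pair of libraries was also chosen after seeing the data. P2ry4 and P2ry6, which respond to uridine nucleotides, had log2 fold changes of 0.98 (SE 0.51) and 0.16 (SE 0.32).

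**Figure D4:**
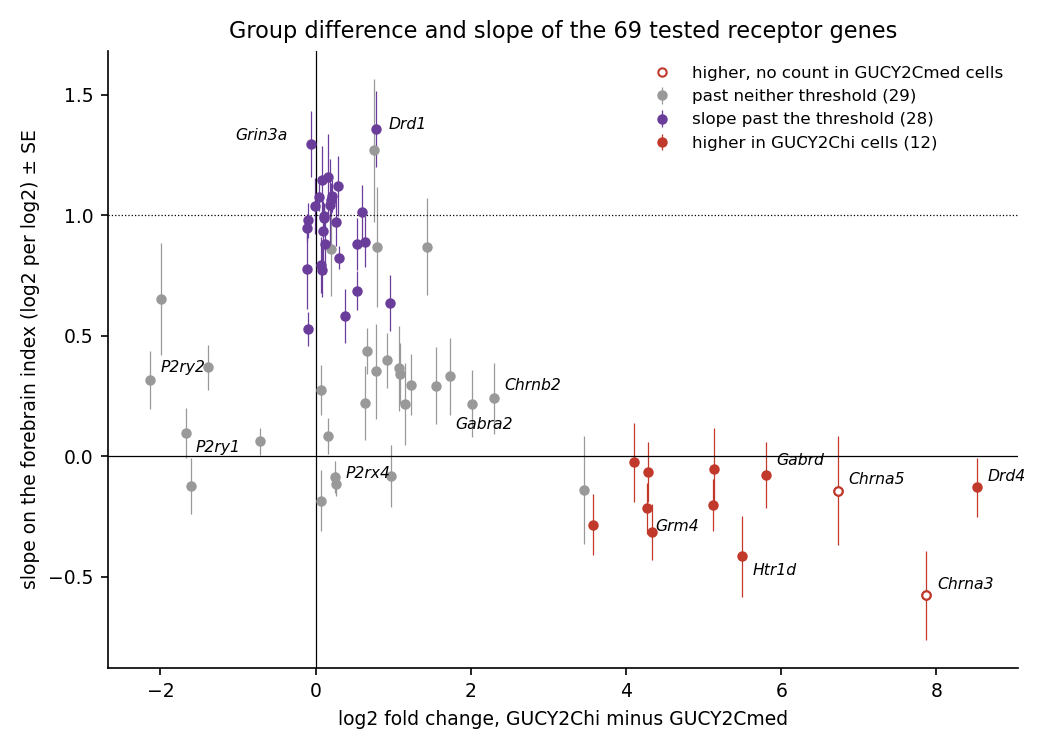
Log2 fold change between groups (horizontal axis) against the slope on the forebrain index with its SE (vertical axis) for the 69 tested receptor genes; open symbols are Chrna3 and Chrna5, whose fitted fold change is not a bound. The 28 genes with a slope past the threshold lie between -0.12 and 0.96 on the horizontal axis, and the 12 higher genes have slopes between -0.58 and -0.02.

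Together, the 28 genes that followed the forebrain index had slopes between 0.53 and 1.36 with a median of 0.98, and 19 lay between 0.8 and 1.2. Their log2 fold changes between groups ranged from -0.12 to 0.96, with adjusted p between 0.393 and 0.999, and their groups overlapped in every case. In GUCY2Chi cells all 28 were highest in mouse 15, as Camk2a was, and in GUCY2Cmed cells 19 of the 28 were highest in mouse 12, as Camk2a was. Of all 69 genes tested, 42 were highest in that GUCY2Chi library and 28 in that GUCY2Cmed library. The genes with a slope were picked by an index that is highest in these same libraries, which favours such a match. Of the 12 higher genes, none was highest in mouse 15 among GUCY2Chi libraries. With the mouse as replicate block 17 of the 28 slopes passed, beside 2.67% of all genes, and those that lost the call are named as such above where they are described. Without the libraries with the most and the least forebrain transcripts, GUCY2Chi of mouse 15 and GUCY2Cmed of mouse 7, 16 passed. Drd1, Chrm1 and Gabra4, which kept their call in the blocked fit, were among those lost there. Of the 15 forebrain neuron markers, 14 had a positive slope, among them Camk2a and Nrgn, which define the index. So had 3 of 6 tested enteric neuron markers, 2 of 5 oligodendrocyte markers, 1 of 4 astrocyte markers, 1 of 2 enteric glia markers, 1 of 4 microglia and macrophage markers and 1 of 4 tuft cell markers. The part of these cell types in the slopes was not tested.

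The 12 higher genes had slopes on the forebrain index from -0.58 to -0.02, with adjusted p between 0.106 and 0.943. With the index as covariate all 12 passed the group test again, and 14 receptor genes in all were higher, beside 16.4% of all genes, and 2 lower, P2ry2 and Grin2d, beside 11.9%. The count of higher genes has the same limit from the filter as the count of 12. For 9 of the 12 the lowest GUCY2Chi library was that of mouse 15, which also held the fewest enteroendocrine transcripts. Over the GUCY2Chi libraries Drd4 ranged 3.87-fold, Gabrd 3.84-fold and Gria2 61.9-fold. All 8 enteroendocrine and all 4 enterochromaffin markers were higher in GUCY2Chi cells. The latter summed to 1429 to 6784 cpm there and 30.7 to 40.8 cpm in GUCY2Cmed cells. Some markers of other cell types were also higher, beside 13.9% of all genes tested. These were 1 of 6 tested for enteric neurons, 1 of 4 for microglia and macrophages and 1 of 5 for oligodendrocytes. Higher as well were 2 of 2 for mesenchyme, muscle and endothelium. The last list holds 10 genes, and its 2 tested, Col1a2 and Pecam1, stayed below 0.23 cpm in GUCY2Cmed libraries. They passed the filter only through GUCY2Chi libraries, so this count carries no weight. Enteric neuron markers summed to 73.9 to 284 cpm in GUCY2Chi and 3.37 to 129 cpm in GUCY2Cmed libraries, with Hand2 at 0 throughout. Of that list Ret measured 19.2 to 71.8 and 0.161 to 1.03 cpm, Prph 0.530 to 3.55 and 0 to 0.562 cpm, and Chat 0 to 1.23 cpm and 0. Microglia and macrophage markers summed to 20.2 to 108 and 0.482 to 4.96 cpm, of which C1qa gave 13.7 to 108 and 0.0803 to 1.40 cpm, while each of the other 8 stayed at or below 2.33 cpm in every library. Markers of mesenchyme, muscle and endothelium summed to 1.26 to 8.56 and 0 to 1.01 cpm. The part of these cell types in the 12 differences was not tested.

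Levels were compared between genes only per length, by the FPKM (fragments scaled by gene length and library depth) that the authors deposited. The gene length that these values imply was shorter than the length in the same table for 16722 of 28618 genes, with a median ratio of 0.687 over those genes and 0.585 over receptor genes. P2rx4 was the most abundant receptor gene in both groups, at 47.9 ± 17.8 FPKM in GUCY2Chi and 33.0 ± 6.03 FPKM in GUCY2Cmed cells (SD, n = 5). In GUCY2Chi cells Gabrd followed at 22.02 ± 8.35 FPKM, Drd4 at 15.9 ± 6.23 FPKM and Gabra2 at 10.7 ± 3.54 FPKM. Ranges of Gabrd and Drd4 overlapped (10.3 to 33.0 and 5.79 to 21.4 FPKM). Within libraries Gabrd was above Drd4 in every GUCY2Chi library but that of mouse 7 (20.6 against 21.4 FPKM). Their difference was not tested. In GUCY2Cmed cells P2ry1 was the next in order at 8.11 ± 1.60 FPKM, without overlap with P2rx4 (5.51 to 9.50 against 22.7 to 37.5 FPKM), and ahead of Gria2 at 5.80 ± 3.85 FPKM. Gabrd ranked 35 and Drd4 77 there among the 115 genes, at 0.339 ± 0.304 and 0.0287 ± 0.0464 FPKM.

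**Figure D5:**
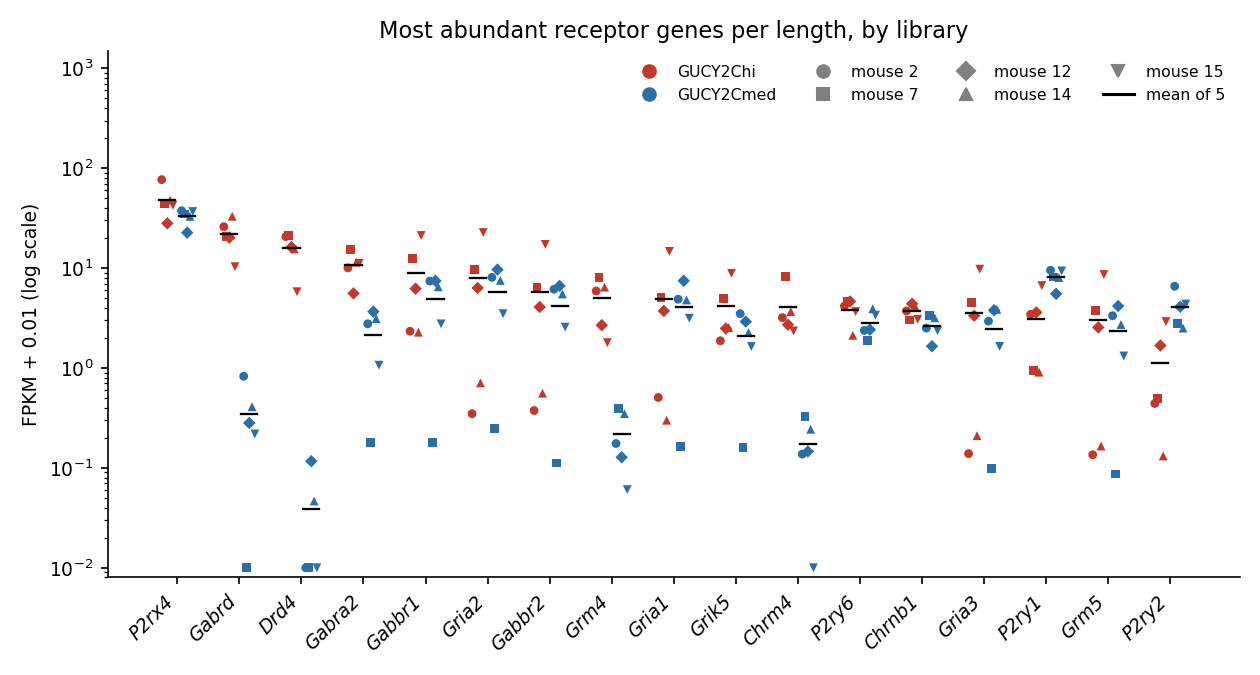
Deposited FPKM (vertical axis, with 0.01 added, log scale) of 17 receptor genes, from those among the 14 most abundant of either group, by library, with a marker shape for each mouse and a black line at the mean of 5. P2rx4 is highest in both groups, and Gabrd and Drd4 come next in GUCY2Chi cells but are near the bottom in GUCY2Cmed cells.

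Proteins that traffic, cluster or modulate these receptors were read from a list of 44 genes, of which 39 were tested. By the same edgeR test 7 of the 39 were higher in GUCY2Chi cells, beside 13.9% of all genes, and 1 was lower, beside 8.79%. A positive slope on the forebrain index was found for 14 of the 39, beside 6.24% of all genes. Higher were Kctd12b (log2 fold change 6.24, SE 0.54) and Kctd12 (3.68, SE 0.52), related to or known as auxiliary subunits of GABA-B receptors, although both GABA-B genes followed the forebrain index. Kctd12b reached at most 0.257 cpm in GUCY2Cmed libraries, so it passed the filter only through GUCY2Chi libraries. Also higher were Shisa9 (3.80, SE 0.53), an AMPA receptor auxiliary subunit, and Neto1 (2.47, SE 0.58), an auxiliary subunit of kainate receptors. The nicotinic receptor modulator Lypd6 (3.67, SE 0.55) and chaperone Ric3 (2.20, SE 0.33) were higher, as was the scaffold protein gene Pick1 (1.34, SE 0.31). Dlg3, a synaptic and epithelial scaffold, measured 23.2 ± 8.10 cpm in GUCY2Chi and 53.2 ± 8.46 cpm in GUCY2Cmed cells (SD, n = 5) and was lower (log2 fold change -1.197, SE 0.24). The genes with a slope included the AMPA receptor auxiliary subunits of the Cacng and Cnih families, Cacng2, Cacng3, Cacng4, Cnih2 and Cnih3, and the scaffolds Shank1, Shank2 and Shank3.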

How the data were processed

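Libraries were 1 per mouse and sort gate, made with the NEBNext Ultra II kit and sequenced, aligned with STAR and counted by Novogene. The authors deposited whole-number read counts per gene, used for every test, and FPKM, used only to set levels of different genes side by side. The strand setting of the counting is not given in the sources used here. The labels name the build mm9, but 115 of 115 members overlapped their RefSeq place on GRCm38.p6 and 22 of 113 that on NCBIM37, so positions are given on GRCm38. The submitters' processing notes name limma 3.40.6 and edgeR 3.26.8. The authors' own comparisons (log2 fold changes and p-values) and 10 further columns of normalized values per sample were not used.

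The 15703 genes that exceeded 0.5 cpm in 3 or more libraries were fitted with edgeR 4.0.16 (glmQLFit and glmQLFTest, TMM factors, R 4.3.3), with Benjamini-Hochberg adjustment over all genes tested and a threshold of 0.01. Values in cpm use the same TMM factors. Common dispersion gave a biological coefficient of variation of 0.458. The forebrain slope was tested in a fit with group and index. Alternatives were limma-voom (limma 3.58.1), DESeq2 1.42.0, the mouse as replicate block, other scaling factors and filters, the index as covariate, another index and threshold, and each library left out in turn. Another 3 alternatives that leave out pairs of libraries were chosen after seeing the data. Fits were tested on simulated data. Figures were drawn with matplotlib 3.10.9, and tables and exact intervals were computed with scipy 1.17.1 and pandas 2.3.3 under Python 3.11.15. Floors of 3 counts and exact 95% intervals cover counting error only.

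The members and all lists were chosen with earlier results of these data known. Genes named by rule were those past the threshold, the most abundant of each class, those at 1 cpm or more whose groups did not overlap, the 5 with the largest fold change that did not pass, and Camk2a and Nrgn. Other genes are named to account for each class, with their values in view, and some genes that count in the totals are not reported here by name. Both gates were sorted from the same 5 mice, which is the source of the pairing. Deviations of the libraries of a mouse from their group means correlated at -0.110, -0.223, 0.272, -0.124 and 0.0607 in mice 2, 7, 12, 14 and 15. Promoters came from RefSeq for GRCm38.p6.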

Additional observations from a re-analysis of the deposited data

Results flagged for a closer look

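Among 40 groups of 5 libraries examined for a library far from the other 4, 2 had a gap to the nearest library above Dixon's critical value of 0.71 of the group's range, and chance alone gives this in about 1 in 20 groups. Drd4 in GUCY2Chi cells of mouse 15 measured 8.94 cpm against 28.8 cpm in the next library, a gap of 0.776 of the range, and that library also held the fewest enteroendocrine transcripts of its group. Chrnb2 in GUCY2Chi cells of mouse 7 measured 5.85 cpm against 3.23 cpm in the next library, a gap of 0.732 of the range.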

How the results depend on the processing

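The count of 12 higher receptor genes stayed between 9 and 15 under every alternative but the filter of at least 10 counts in every library, where it was 0 because only 6 receptor genes remained and all 12 were removed. With a library left out it ranged from 10 to 13. The count of lower receptor genes, 0, became 2 by limma-voom and by DESeq2 (P2ry1 and P2ry2 in both), 2 with the forebrain index as covariate (P2ry2 and Grin2d), 4 at an adjusted p under 0.05, 4 without the GUCY2Chi libraries of mice 12 and 15, and 2 without the GUCY2Chi library of mouse 15 and the GUCY2Cmed library of mouse 12. With a library left out it ranged from 0 to 3, the highest without the GUCY2Chi library of mouse 15 (Htr6, P2ry1 and P2ry2). With the mouse as replicate block, which pairs the libraries, 9 receptor genes were higher by edgeR, the calls of Chrna1, Chrna3 and Chrna5 being lost and no other group call changed, whereas limma-voom with the same block called all 12. Positive slopes fell from 28 to 17 in the blocked fit and to 16 without the GUCY2Chi library of mouse 15 and the GUCY2Cmed library of mouse 7, and ranged from 24 to 29 with a library left out, whereas negative slopes stayed at 0. Among accessory genes, 3 were higher with at least 10 counts in every library and 11 with the index as covariate, and none was lower without TMM factors. With a library left out, 5 to 7 were higher and 0 to 1 lower. Changes of direction were counted only for the genes named by rule, Camk2a and Nrgn among them. None of those called in the group comparison changed direction, but 7 that did not pass did in some fits. In none of these fits did they pass (adjusted p 0.405 or more). The log2 fold change of Grm7, outside that count, went from 0.068 to -0.035 with the index as covariate. By limma-voom the log2 fold change was -0.35 for Gria2, -0.46 for Grm5, -0.26 for Camk2a and -0.37 for Nrgn. With the mouse as replicate block it was -0.16 for Grin2b, and by edgeR and limma-voom -0.56 and -0.19 for Gria2, -0.66 and -0.026 for Grm5, -0.54 and -0.21 for Camk2a and -0.66 and -0.43 for Nrgn. With the index as covariate it was -0.011 for Gria2, -0.085 for Grm5 and -0.0083 for Nrgn. Without the GUCY2Chi libraries of mice 12 and 15 it was -0.81 for Grin2b, -1.06 for Gria2, -0.39 for Glrb, -1.16 for Grm5, -0.10 for Gabbr1, -1.10 for Camk2a and -1.30 for Nrgn. Without the GUCY2Chi library of mouse 15 and the GUCY2Cmed library of mouse 12 it was -0.25 for Grin2b, -0.48 for Gria2, -0.15 for Glrb, -0.47 for Grm5, -0.53 for Camk2a and -0.60 for Nrgn. With a library left out it ranged from -0.51 to 0.71 for Grin2b, -0.70 to 0.51 for Gria2, -0.24 to 1.01 for Glrb, -0.76 to 0.47 for Grm5, -0.75 to 0.51 for Camk2a and -0.85 to 0.49 for Nrgn. The cause of these shifts was not tested, apart from the removed genes. At this depth a gene without a count could still be present at up to 0.181 to 0.281 cpm, and 35 receptor genes had too few counts for a test.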
